A study of Mus musculus with 6 samples.

Results

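The genes described here are 10 mouse genes of glucocorticoid signalling, taken by name from the deposited table of 55487 gene identifiers. They are the receptor gene Nr3c1, the steroid-responsive genes Fkbp5, Tsc22d3, Sgk1, Zbtb16, Klf9 and Hif3a, the genes Hsd11b1 and Hsd11b2 of the enzymes that switch glucocorticoids on and off, and Cyp11a1, the gene of the first enzyme of steroid synthesis. Each of the 10 had a row in the table. Of these, 9 had a mean of at least 1 FPKM over the libraries and were tested among 15806 genes, and Hsd11b1 stayed below that level. FPKM, the unit of the values, is a fragment count scaled to transcript length and library depth.

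RNA of terminal ileum of C57BL/6 mice at postnatal day 9 was sequenced from 3 NEC samples and 3 control samples, 1 library each. NEC, necrotizing enterocolitis, was induced by gavage of a hyperosmolar formula, spells of 10 min in 5% oxygen 3 times daily for 4 days, and lipopolysaccharide by mouth on postnatal days 6 and 7 (4 mg/kg/day). The same protocol text stands with the control samples, and how the control pups were fed and handled is not stated in it. The labels do not say whether a library is 1 animal or a pool, so each p-value refers to the spread among libraries, which may be technical.

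Glucocorticoids enter cells and bind the receptor, which is held ready by Hsp90 and its co-chaperones, moves to the nucleus and binds DNA at paired half-sites called glucocorticoid response elements. Fkbp5 is one of its best-known targets and its product lowers the receptor's affinity for hormone, which closes a feedback loop. In suckling rodents the hormone surge of the weaning period, or hormone given earlier, brings forward the maturation of the intestinal epithelium, and the intestinal mucosa can itself make corticosterone.

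The libraries were not alike. Depth was estimated at 16.9, 18.2 and 18.7 M fragments in NEC 1, 2 and 3, and at 15.2 to 16.2 M in the controls. The median change of tested genes was -0.26 on the log2 scale, so each change below is to be read against that value. Replicates spread more in NEC, where the SD of log2 values had a median of 0.21 over tested genes, than in control, where it was 0.09. Xist, the RNA that silences one X chromosome in females, was at 0.177 FPKM in NEC 1, at 129.6 and 139 FPKM in NEC 2 and 3, and at 0.084 to 0.221 FPKM in the controls, while the Y-linked gene Eif2s3y was at 12.1 FPKM in NEC 1, at 0 and 0.00908 FPKM in NEC 2 and 3, and at 10.3 to 11.8 FPKM in the controls. NEC 1 thus had the sex pattern of the controls and NEC 2 and 3 the other, and for NEC 2 and 3 sex and condition cannot be told apart. The 7 ileal epithelium markers summed to 911 to 1063 FPKM in NEC and 740.4 to 809 FPKM in control. Vil1 was called higher at 0.75 and Fgf15, an ileal hormone gene, lower at -2.14 (adjusted p = 0.00548 and 0.00519, limma). Epcam was abundant in each library and the ileal bile acid genes Fabp6 and Slc10a2 were low, with Fabp6 at 0.123, 0 and 10.4 FPKM in NEC 1, 2 and 3 and at 1.2 to 2.45 FPKM in the controls.

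The receptor gene was lower in NEC on the deposited scale. Nr3c1 was at 4.88, 6.78 and 6.75 FPKM in NEC 1, 2 and 3, against 9.08, 13.5 and 8.32 FPKM in control 1, 2 and 3. The groups did not overlap, and control 2 stood highest. The log2 change was -0.65 (SE 0.20, adjusted p = 0.0436, limma, Benjamini-Hochberg), or -0.39 relative to the median of tested genes. The call rested on the scale and on each library: the change was -0.34 with TMM scaling and -0.47 with quantile normalization, and it passed in neither (adjusted p = 0.174 and 0.116), nor without any 1 of the 6 libraries (adjusted p from 0.0559 to 0.113). In bulk RNA, fewer cells of a type and less RNA per cell cannot be told apart.

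Nr3c2 encodes the mineralocorticoid receptor, which also binds glucocorticoids. It was at 1.05, 1.89 and 1.71 FPKM in NEC and 1.38, 1.79 and 2.12 FPKM in control, with overlapping groups (log2 change -0.12, SE 0.18, adjusted p = 0.592). The log2 ratio of Nr3c2 to Nr3c1 within a library, each with 1 FPKM added, was -1.49 ± 0.05 in NEC libraries and -2.01 ± 0.40 in control libraries (SD, n = 3; exact two-sided permutation p = 0.1, also 0.1 adjusted over 3 ratios). With 3 libraries against 3 no smaller p than 0.1 is possible, so no ratio could pass. That the NEC libraries lay above the controls in the ratio of Nr3c2 to Nr3c1 depended on the added constant. With 0.1 and 0.01 FPKM added the difference in means was 0.52 each time, and p was 0.2 and 0.3 (exact two-sided permutation).

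Fkbp5, which encodes the Hsp90 co-chaperone FKBP51 (chromosome 17, 28399094 to 28517527), had the largest proportional difference of the steroid-responsive members. It was at 17.4, 3.37 and 2.80 FPKM in NEC 1, 2 and 3, against 0.715, 0.563 and 0.761 FPKM in control 1, 2 and 3. Each NEC library lay above each control, and NEC 1 stood far above NEC 2 and 3. The mean was 7.87 ± 8.29 FPKM over the NEC libraries and 0.679 ± 0.104 FPKM over the controls (SD, n = 3 each), a ratio of 11.6, and the log2 change was 2.01 (SE 0.57, adjusted p = 0.0343, limma, Benjamini-Hochberg). Fkbp5 reached the filter of 1 FPKM through the NEC libraries alone, so it had to differ to be tested. Without a filter its adjusted p was 0.0659. Without NEC 1 the change was 1.28, with adjusted p = 0.00259, and without any 1 control or without NEC 2 the call was lost (adjusted p from 0.0505 to 0.0986). An intronic entry annotated within Fkbp5 on the same strand, AC154912.5, was also highest in NEC 1. It was at 13.0, 1.90 and 0.220 FPKM in NEC 1, 2 and 3 and at 0.289 to 0.462 FPKM in control. Fragments of such an entry and of its host transcript are not safely told apart.

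Fkbp4 encodes FKBP52, the co-chaperone that FKBP51 competes with on Hsp90. It was at 12.6, 20.8 and 24.4 FPKM in NEC and at 24, 23.5 and 26.2 FPKM in control (adjusted p = 0.214). The log2 ratio of Fkbp5 to Fkbp4 was 0.44, -2.32 and -2.74 in NEC 1, 2 and 3, against -3.86, -3.97 and -3.95 in the controls. The groups did not overlap, and in NEC 1 alone Fkbp5 exceeded Fkbp4. The difference in means was 2.39 (exact two-sided permutation p = 0.1).

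**Figure D1:**
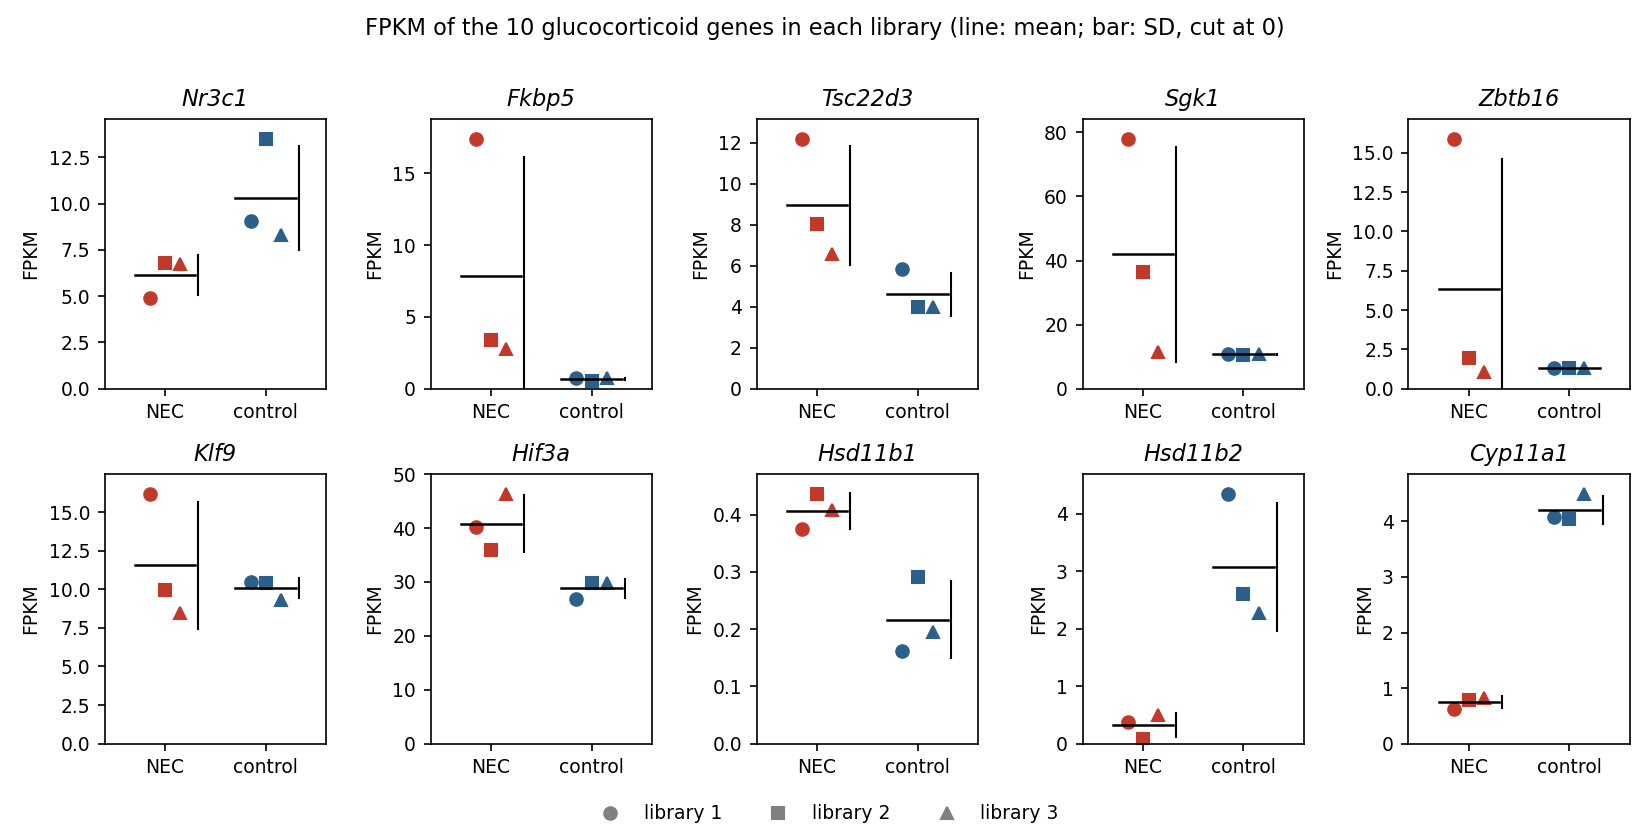
FPKM of each of the 10 genes (y axis, from 0, own scale per panel) in the 3 NEC and the 3 control libraries (x axis); circles, squares and triangles are libraries 1, 2 and 3, the line is the mean and the bar the SD. For Fkbp5, Sgk1 and Zbtb16 NEC 1 stood at 17.4, 78.0 and 15.9 FPKM, above the other libraries, while for Hsd11b2 and Cyp11a1 the 3 NEC libraries lay together below the controls.

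Tsc22d3 encodes GILZ, a leucine zipper protein that restrains NF-kB and AP-1 (chromosome X, 140539528 to 140600659). It was at 12.2, 8.06 and 6.58 FPKM in NEC 1, 2 and 3, against 5.82, 4.00 and 4.01 FPKM in control 1, 2 and 3. Each NEC library lay above each control, and the NEC libraries were in the same order as for Fkbp5. That order was not particular to these genes. On the first principal component, the main axis of difference among the 6 libraries, NEC 1, 2 and 3 lay at -67.5, -31.9 and -15.6. The controls lay at 34.2 to 40.9 on it. The log2 change of Tsc22d3 was 0.80 (SE 0.23, adjusted p = 0.0349, limma, Benjamini-Hochberg) and 1.06 relative to the median. Without NEC 1 it was 0.58 (adjusted p = 0.0416), and the call was lost without NEC 2, any 1 control or the filter, at adjusted p up to 0.112.

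Sgk1 encodes a kinase that raises the activity of epithelial sodium channels and exchangers (chromosome 10, 21882184 to 21999903). It was at 78.0, 36.3 and 11.5 FPKM in NEC 1, 2 and 3, against 10.9, 10.4 and 10.8 FPKM in control 1, 2 and 3. The controls were nearly equal, NEC 3 lay just above them, and the NEC libraries spread over 6.81-fold. The log2 change of 1.51 (SE 0.60) did not pass (adjusted p = 0.0881, limma, Benjamini-Hochberg). Without NEC 3 it was 2.21 and passed (adjusted p = 0.00772), and without NEC 1 it was 0.88 (adjusted p = 0.157).

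Of the promoters of 7 members in RefSeq's GRCm38.p6 annotation, 15 in all with alternative starts, 1 start of Sgk1 had the palindromic response element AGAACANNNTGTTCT, searched on both strands from 250 bases upstream to 50 downstream of each start. That motif was found in 3 of 32851 promoters of the same 300 bases, or 0.00913%. A looser form, GNACANNNTGTNC, which each longer match contains, was found in 156 promoters, or 0.475%. Among the genes of the lists used here it was also found for Map3k6, Mt1 and Hsd3b6. The 250 bases upstream of that Sgk1 start (chr10:21993640-21993889, plus strand) lie within the Sgk1 gene and in no annotated exon in GENCODE M21, and 61 bases around each match are shown for Map3k6 (chr4:133240613-133240673, plus strand) and Mt1 (chr8:94178971-94179031, plus strand), because these genes are described below. Capitals mark the palindromic element in Sgk1 and the looser form in the others. A match describes letters and is not evidence of binding here.
Sgk1: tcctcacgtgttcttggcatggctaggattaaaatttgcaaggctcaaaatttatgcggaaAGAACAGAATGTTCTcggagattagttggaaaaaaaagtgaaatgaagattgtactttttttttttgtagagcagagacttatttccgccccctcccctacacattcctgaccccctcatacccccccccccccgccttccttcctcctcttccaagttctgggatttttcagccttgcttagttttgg
Map3k6: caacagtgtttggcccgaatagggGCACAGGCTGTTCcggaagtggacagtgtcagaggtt
Mt1: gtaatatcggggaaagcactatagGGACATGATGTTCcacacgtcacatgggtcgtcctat

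Zbtb16 encodes PLZF, a zinc finger transcription factor that glucocorticoids induce strongly in several human and rodent cells (chromosome 9, 48654297 to 48836222). It was at 15.9, 1.98 and 1.06 FPKM in NEC 1, 2 and 3, against 1.32, 1.33 and 1.35 FPKM in control 1, 2 and 3. The SD of the controls was 0.0198 FPKM, and NEC 3 lay below them, so the groups overlapped. NEC 1 was 10.5 times the mean of NEC 2 and 3. The log2 change of 1.01 (SE 0.73) did not pass (adjusted p = 0.3, limma, Benjamini-Hochberg), and it was 0.08 without NEC 1.

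Klf9 encodes a Krüppel-like transcription factor that follows glucocorticoid and thyroid hormone (chromosome 19, 23141226 to 23168134). It was at 16.2, 9.98 and 8.45 FPKM in NEC 1, 2 and 3, against 10.5, 10.4 and 9.32 FPKM in control 1, 2 and 3. NEC 1 was again the highest library and NEC 3 the lowest, with the controls between them. The log2 change of 0.14 (SE 0.22, adjusted p = 0.643) turned to -0.12 without NEC 1. TMM scaling, which changed no call of this gene, gave 0.46.

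Hif3a encodes HIF-3 alpha, a hypoxia-inducible factor subunit that also responds to glucocorticoids in rodent tissues (chromosome 7, 17031507 to 17062427). It was at 40.2, 35.9 and 46.4 FPKM in NEC 1, 2 and 3, against 26.8, 29.8 and 29.9 FPKM in control 1, 2 and 3. The groups did not overlap, and here NEC 3 was the highest library. The log2 change was 0.48 (SE 0.12, adjusted p = 0.0229, limma, Benjamini-Hochberg), 0.49 without NEC 1 and 0.82 with TMM scaling, and the call was lost without any 1 control (adjusted p up to 0.0891).

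Of the 2 genes that set the local supply of active hormone, Hsd11b1 lay under 1 FPKM in each library and Hsd11b2 in the NEC libraries only. Hsd11b2 encodes the dehydrogenase that inactivates corticosterone and so keeps it from the mineralocorticoid receptor (chromosome 8, 105518755 to 105523988). It was at 0.385, 0.0898 and 0.495 FPKM in NEC 1, 2 and 3, against 4.35, 2.61 and 2.28 FPKM in control 1, 2 and 3. As the gene has 1 annotated transcript of 1840 bases, these values could be turned back into 12.0, 3.0 and 17.0 fragments in the NEC libraries and 125.0, 73.0 and 68.0 fragments in the controls. The lowest control had a level several times the highest NEC library, and the mean in control was 9.52 times that in NEC. The log2 change was -1.6 (SE 0.22, adjusted p = 0.00633, limma, Benjamini-Hochberg). The gene reached the filter through the controls alone, and without a filter it passed too (adjusted p = 0.0159). It was called in each alternative where it was tested, with adjusted p from 0.00258 to 0.0330.

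Hsd11b1 encodes the reductase that regenerates corticosterone (chromosome 1, 193221634 to 193264075). It was at 0.375, 0.437 and 0.408 FPKM in NEC 1, 2 and 3, against 0.162, 0.292 and 0.196 FPKM in control 1, 2 and 3. NEC lay above control in each library, but at this level the gene was not tested, and without a filter the log2 change of 0.21 (SE 0.06) did not pass (adjusted p = 0.0651, limma, Benjamini-Hochberg). Lamb3 overlaps the gene on the opposite strand, and it is not stated whether counting used strand. The log2 ratio of Hsd11b1 to Hsd11b2 was -0.01, 0.40 and -0.09 in NEC, against -2.20, -1.48 and -1.46 in control, a difference in means of 1.81 (exact two-sided permutation p = 0.1). The groups did not overlap in this ratio, and its size depended on the added constant, at 3.71 with 0.1 FPKM. H6pd, whose product supplies the NADPH that the reductase uses, was at 84.9, 75.5 and 85.1 FPKM in NEC and at 51.1, 52.2 and 55.1 FPKM in control (log2 change 0.62, SE 0.09, adjusted p = 0.00743), and it was called in each of 16 alternatives.

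Cyp11a1 encodes the mitochondrial side-chain cleavage enzyme, which turns cholesterol into pregnenolone (chromosome 9, 58006411 to 58027023). It was at 0.624, 0.788 and 0.822 FPKM in NEC 1, 2 and 3, against 4.07, 4.05 and 4.50 FPKM in control 1, 2 and 3. Both groups were tight and far apart, with the control mean 5.65 times that of NEC. The log2 change was -1.58 (SE 0.11, adjusted p = 0.000989, limma, Benjamini-Hochberg), the smallest p of the 9 tested members. It too reached the filter through the controls, and it passed without a filter (adjusted p = 0.00276) and in every other alternative where it was tested, with adjusted p at most 0.0120. The lincRNA Gm17322, which overlaps it on the same strand, was at 1.12, 1.42 and 1.93 FPKM in NEC and at 5.84, 7.00 and 5.09 FPKM in control. Fragments of Gm17322 and of Cyp11a1 may not be safely told apart.

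**Figure D2:**
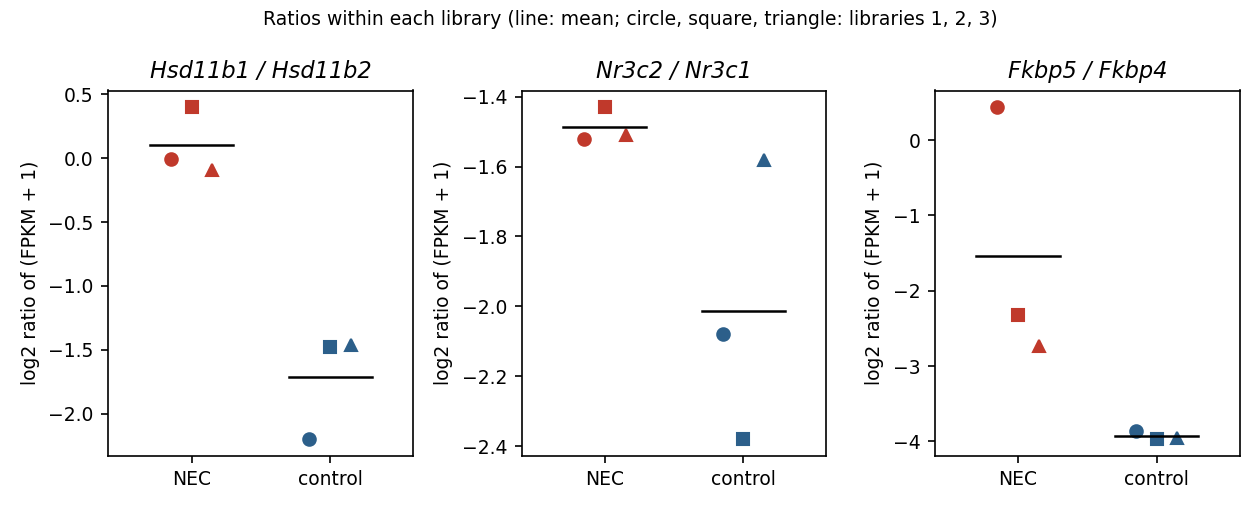
Log2 ratio of (FPKM + 1) of 3 gene pairs (y axis) within each NEC and control library (x axis); circles, squares and triangles are libraries 1, 2 and 3 and the line is the mean. With 1 FPKM added the NEC libraries lay above the controls in each pair. The differences in means were 1.81 for Hsd11b1 over Hsd11b2, 0.52 for Nr3c2 over Nr3c1 and 2.39 for Fkbp5 over Fkbp4. NEC 1 at 0.44 drew up that of Fkbp5 over Fkbp4 most. For Nr3c2 over Nr3c1 the separation was not kept with smaller constants (exact two-sided permutation p = 0.2 with 0.1 FPKM and 0.3 with 0.01 FPKM).

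Over the 9 tested members, 3 were called higher (Fkbp5, Tsc22d3 and Hif3a), 3 lower (Nr3c1, Hsd11b2 and Cyp11a1) and 3 did not pass. Among all tested genes, 38.2% were called, 7.69% as higher and 30.6% as lower. Separate ranges in NEC and control were seen for 7 of the 9, against 59.1% of all tested genes. Since 3 of the 9 reached the filter through 1 group, and the members were chosen with earlier results of these data known, these counts only describe the members. With TMM scaling they were 3 and 2, with quantile normalization 3 and 2, and without control 1, 2 or 3 they were 0 and 2 each.

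**Figure D3:**
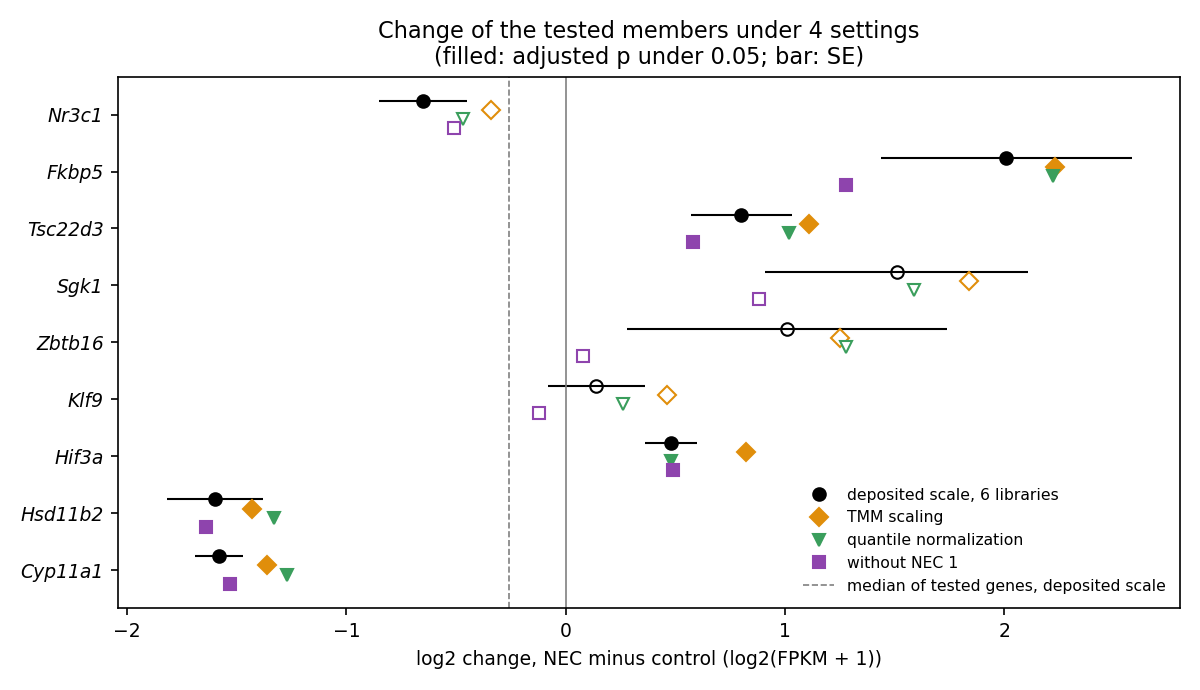
Log2 change, NEC minus control (x axis), of the 9 tested members on the deposited scale, with TMM scaling, with quantile normalization and without NEC 1, with the SE as a bar on the values of the deposited scale; filled symbols had an adjusted p under 0.05, and the dashed line is the median of tested genes at -0.26. Hsd11b2 and Cyp11a1 stayed between -1.64 and -1.27 and were called in each of these 4, while Zbtb16 lay at 0.08 and Klf9 at -0.12 without NEC 1.

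Levels compared per length placed Hif3a first in control, at 28.8 ± 1.77 FPKM (SD, n = 3). Sgk1, Nr3c1 and Klf9 followed at 10.7, 10.3 and 10.1 FPKM with overlapping values. Tsc22d3, Cyp11a1 and Hsd11b2, at 4.61, 4.21 and 3.08 FPKM, also overlapped, ahead of Zbtb16 at 1.33, Fkbp5 at 0.679 and Hsd11b1 at 0.217 FPKM. In NEC the means of Sgk1 and Hif3a, 41.9 ± 33.6 and 40.8 ± 5.29 FPKM, headed the order. Klf9, Tsc22d3, Fkbp5, Zbtb16 and Nr3c1 lay between 6.14 and 11.6 FPKM. Their values overlapped, except that each value of Klf9 was above each of Nr3c1. Cyp11a1, Hsd11b1 and Hsd11b2 came last, all under 1 FPKM.

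The NEC libraries differed much among themselves in some members. The SD of log2 values over the NEC libraries was 1.62 for Zbtb16, 1.34 for Sgk1 and 1.26 for Fkbp5, where the median of tested genes was 0.21. NEC 1 lay at least 2-fold above both NEC 2 and NEC 3, in FPKM + 1, for these 3 of the 9 tested members and for 1.58% of tested genes, a limit chosen after the values were seen. None of the 9 lay at least 2-fold below both, as 1.99% of tested genes did. Tsc22d3 and Klf9 were also highest in NEC 1, at 1.66 and 1.76 times the mean of NEC 2 and 3, while Hif3a was at 0.977 times and Nr3c1 at 0.721 times that mean. Other values of NEC 1 moved with this. Its smooth muscle markers summed to 114 FPKM, against 479 and 508 FPKM in NEC 2 and 3 and 603 to 725 FPKM in control, and its enteric neuron and glia markers to 3.55 FPKM, against 8.71 and 10.2 FPKM in NEC 2 and 3 and 18.6 to 21.9 FPKM in control. The 7SL RNA gene Rn7s1 held 42.7% of its total, against 31.3% and 32.2% in NEC 2 and 3 and 27.3% to 31.4% in control. The part of these differences, or of sex, in the values of NEC 1 was not tested.

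By the Euclidean distance between log2 values over the 6 libraries, each centred on its own mean, the genes most like Fkbp5 among 6950 with a mean of at least 5 FPKM were Trim40 at 0.458, Oasl1 at 0.555, Ptk6 at 0.722, Sfn at 0.735 and the pseudogene Btnl7-ps at 0.739. Trim40 was at 21.6, 6.59 and 4.58 FPKM in NEC 1, 2 and 3, against 1.06 to 1.27 FPKM in control. Oasl1, an interferon-induced gene, was at 37.7, 7.21 and 4.38 FPKM in NEC 1, 2 and 3, against 1.32 to 1.90 FPKM in control. These genes were picked for likeness to Fkbp5 in these same libraries, so their highest values in NEC 1 and lowest in the controls follow from the choice. Fkbp5 itself averaged less than 5 FPKM.

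Other known targets of the receptor did not move one way. In a list of 30 genes, of which 26 were tested, 6 rose, 6 fell and 14 did not pass. That is 23.1% in each direction, where 7.69% of all tested genes were higher and 30.6% lower. Bcl6, Map3k6 and Rasd1 passed the filter through NEC alone. This list and those below were chosen with earlier results of these data known, so their counts and shares only describe them. The median log2 change of the 26 was 0.12, against -0.26 over all tested genes. With TMM scaling 8 were higher and 3 lower, and without control 1, 2 and 3 there were 2, 2 and 3 lower. Pdk4, the kinase that turns cells from glucose to fat use, was at 40.0, 39.0 and 26.0 FPKM in NEC, against 5.51, 5.53 and 4.77 FPKM in control, and its log2 change was 2.5 (SE 0.17, adjusted p = 0.00108, limma, Benjamini-Hochberg). The metallothionein genes Mt1 and Mt2, which bind zinc, rose by 2.07 and 2.20 (adjusted p = 0.00353 and 0.00461). Mt1, whose promoter match is shown above, was at 321, 197 and 242 FPKM in NEC and 46.5, 60.9 and 70.4 FPKM in control. Bcl6, a transcriptional repressor, Cdkn1a, a cell cycle inhibitor, and Tnfaip3, an inhibitor of NF-kB, were the other 3 higher genes, named after their values were seen, at 0.67, 0.65 and 0.56. The calls of Bcl6 and Tnfaip3 were lost without any 1 control, and that of Tnfaip3 also without NEC 1 or NEC 2.

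Glul, which encodes glutamine synthetase, fell instead, to 21.3, 16.8 and 22.9 FPKM in NEC, against 46.7, 43.6 and 45.8 FPKM in control (log2 change -1.13, SE 0.13, adjusted p = 0.00417). Rgs2, a regulator of G protein signalling, fell by 1.27 and Dusp1, a phosphatase that turns off MAP kinases, by 0.46, but Dusp1 did not pass with TMM scaling (-0.19) or without any 1 control. Anxa1, Angptl4 and Cdkn1c, named after their values were seen, were also lower, at -0.95, -0.79 and -0.54. Anxa1 and Cdkn1c did not pass with TMM scaling, nor Angptl4 without control 1 or 2. Per1, a clock gene that the receptor induces directly, was at 10.1, 7.03 and 3.91 FPKM in NEC, against 6.69, 5.43 and 6.29 FPKM in control (adjusted p = 0.805).

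Some genes of that list were far higher in NEC 1 than in NEC 2 and 3, and are named after their values were seen. Of the 26 tested, 2 (Map3k6 and Rasd1) lay at least 2-fold above both, in FPKM + 1, and 1 (Pck1) at least 2-fold below both. Over all tested genes the shares were 1.58% and 1.99%. Map3k6 and Rasd1 lay below 1 FPKM in every library but NEC 1. Both thus reached the filter through NEC 1 alone and had to be higher there to be tested, so their count only describes them. Pck1 was at 7.18, 30.7 and 17.6 FPKM in NEC 1, 2 and 3, against 27.1, 21.4 and 28.5 FPKM in control (adjusted p = 0.286, limma). Map3k6 was at 4.00, 0.959 and 0.933 FPKM in NEC 1, 2 and 3, against 0.647, 0.767 and 0.806 FPKM in control (adjusted p = 0.214). Rasd1, a small G protein induced by dexamethasone in mouse cells, was at 6.05, 0.171 and 0.299 FPKM in NEC, against 0.795, 0.53 and 0.498 FPKM in control (adjusted p = 0.598). Tat, the liver tyrosine aminotransferase long used as a readout of the hormone, was at 3.54, 0.0862 and 0.168 FPKM in NEC, against 0.125, 0.0771 and 0.121 FPKM in control, and was not tested. In NEC 2 and 3 Rasd1 was lower than in each control.

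**Figure D4:**
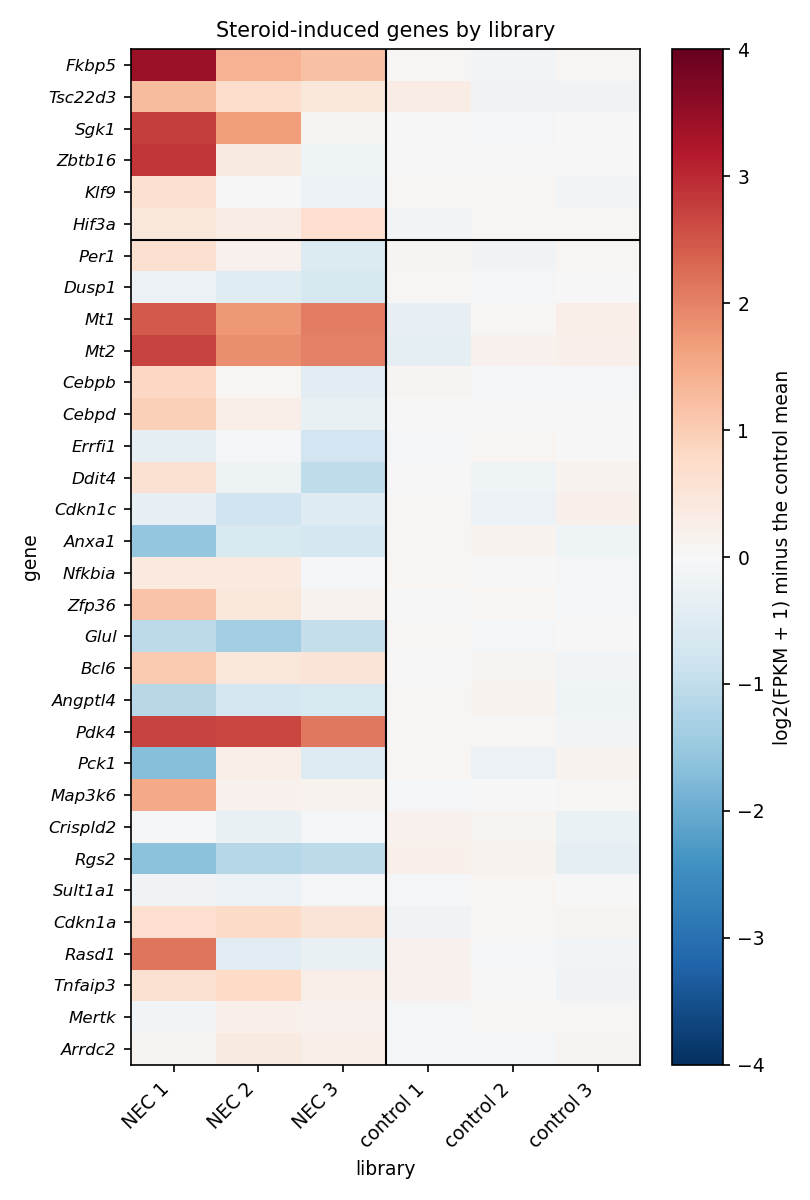
Log2(FPKM + 1) minus the control mean (colour, -4 to 4) of 6 members and the 26 tested genes of the list of other induced targets (rows, divided by the line) in each NEC and control library (columns). Fkbp5, Sgk1, Zbtb16, Rasd1 and Map3k6 were redder in NEC 1 than in NEC 2 and 3, and Pck1 was bluer. Pdk4, Mt1 and Mt2 were red in the 3 NEC libraries, and Glul and Rgs2 were blue in them.

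Genes of the proteins that hold and assist the receptor were measured at the RNA level. Of 16 chaperone genes, none was higher, 6 were lower and 10 did not pass, with a median of -0.29. The 37.5% called lower stood beside 30.6% of all tested genes, and the median beside -0.26. TMM scaling gave 3 higher and 1 lower, quantile normalization 1 and 1, and without NEC 2 or control 1, 2 and 3 there were 0, 0, 0 and 1 lower. Hsp90ab1, the constitutive Hsp90, was at 51.5, 67.0 and 77.6 FPKM in NEC and at 97.9, 107 and 99.3 FPKM in control (log2 change -0.64, SE 0.16, adjusted p = 0.0223), though at -0.30 with TMM scaling it did not pass. Ppid, which encodes the Hsp90 co-chaperone cyclophilin 40, and Hspa1a and Hspa1b, near-identical Hsp70 genes whose split is uncertain, were lower by -0.62, -0.69 and -0.75, and Dnajb1 by -0.30. The calls of Ppid, Hspa1b and Dnajb1 were lost with TMM scaling, where Dnajb1 was at 0.02. In the cofactor list of 13 genes, which also holds the receptor gene Nr3c2, 3 were lower and 10 did not pass, with a median of -0.21. The 23.1% called lower stood beside 30.6% of all tested genes. Quantile normalization left 0 lower, as did the replicate block and leaving out NEC 2 or any 1 control. Ncoa2 and Smarcd1, both lower, were at -0.30 and -0.39, and neither passed with TMM scaling, where Ncoa2 was at 0.01 and 3 genes of the list were higher and 0 lower.

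Of 11 tested genes of steroid synthesis and its cholesterol supply, in a list of 20, 3 were higher, Cyp11a1 was lower and 7 did not pass, with a median of 0.03. Star, which carries cholesterol to the side-chain cleavage enzyme, was at 2.10, 2.78 and 2.24 FPKM in NEC and at 0.553, 0.522 and 0.418 FPKM in control (log2 change 1.17, SE 0.12, adjusted p = 0.00352). Star passed the filter through NEC alone and Cyp11a1 through control alone, so both had to differ to be tested. The shares of the list, 27.3% higher and 9.09% lower, stood beside 7.69% and 30.6% of all tested genes. Por, the electron donor of microsomal cytochromes P450, rose by 1.6 and Scarb1, a lipoprotein receptor, by 0.57, the Scarb1 call being lost without any 1 control (adjusted p up to 0.077). Nr5a2, the nuclear receptor LRH-1 that drives steroid synthesis in mouse intestine, was at 4.12, 6.22 and 8.81 FPKM in NEC and at 11.2, 9.79 and 10.8 FPKM in control, and the log2 change of -0.70 did not pass (adjusted p = 0.0504). It passed without NEC 1 or NEC 3. Hsd3b3, also in the list, was at 3.25 to 7.13 FPKM in NEC and at 6.43 to 7.35 FPKM in control (adjusted p = 0.405, limma). Hsd3b2 was at 0.65 to 1.31 FPKM in NEC and at 0.897 to 1.1 FPKM in control (adjusted p = 0.876, limma). Of the later enzymes, Cyp11b2, Cyp11b1 and Cyp21a1 were scarce. Cyp11b2 was at 0 in each library, Cyp11b1 was at 0.0415 FPKM in control 2 and at 0 elsewhere, and Cyp21a1 was at most 0.0445 FPKM. Of the 5 adrenal cortex markers, those 3, Star and Mc2r, the highest after Star was Mc2r at 0.118 FPKM in control 1, and the summed level was 2.17 to 2.83 FPKM in NEC and 0.460 to 0.671 FPKM in control.

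Among 10 tested genes of hormone breakdown and export, in a list of 15 that includes Hsd11b2, 6 rose, 2 fell and 2 did not pass. H6pd, described above, is among the 6, although its product serves the reductase that regenerates the hormone. The median change was 0.81, and the shares were 60% higher and 20% lower, beside 7.69% and 30.6% of all tested genes. Of these, Cyp3a25 and Sult2b1 were tested only through their NEC values and Hsd11b2 and Srd5a1 only through their control values, so these 4 had to differ. Abcb1a, the P-glycoprotein pump that exports steroids among other substrates, was at 100.4, 119 and 99.6 FPKM in NEC, against 34.3, 35.3 and 33.9 FPKM in control (log2 change 1.59, SE 0.10, adjusted p = 0.000874). The cytochrome P450 genes Cyp3a13 and Cyp3a25 rose by 1.53 and 2.32, the glucuronosyltransferase gene Ugt2b34 by 1.01 and the sulfotransferase gene Sult2b1 by 1.5. Counting may have split reads of these genes with near-identical relatives. Srd5a1, the 5-alpha-reductase, was lower at -0.58, but did not pass with TMM scaling. TMM scaling and quantile normalization also gave 6 higher.

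A list on epithelial sodium transport under corticosteroids had 7 of 12 tested members higher, none lower and 5 not passing, with a median of 0.57. It also holds genes that are not sodium transporters, such as Nr3c2, Nedd4l, Slc26a3 and Kcnk5. The share called higher was 58.3%, beside 7.69% of all tested genes, and it only describes a list chosen with earlier results of these data known. The sodium pump subunit gene Atp1b1 rose by 1.01 and the exchanger gene Slc9a2 by 0.94 (adjusted p = 0.00319 and 0.00530, limma, Benjamini-Hochberg), and the scaffold gene Slc9a3r1 and the channel gene Kcnk5 by 0.72 and 0.98. Without any 1 control 4 were higher, and the Kcnk5 call was among those lost. Slc9a3, the brush-border sodium-hydrogen exchanger and a classic glucocorticoid target in rabbit and rat intestine, is named after its values were seen. It was at 69.2, 8.54 and 5.53 FPKM in NEC 1, 2 and 3, against 1.59, 1.46 and 1.24 FPKM in control 1, 2 and 3. Its log2 change was 2.75 (SE 0.83, adjusted p = 0.0399), and 1.70 without NEC 1, but it did not pass with TMM scaling, without NEC 2 or without any 1 control (adjusted p up to 0.103). Of the epithelial sodium channel subunits, Scnn1a was called higher at 0.32 (adjusted p = 0.0470). Scnn1b was at 0.12, 0.07 and 0.15 FPKM in NEC, against 0.504, 0.835 and 0.502 FPKM in control, and Scnn1g at 0.108 to 0.276 FPKM in NEC, against 0.407 to 0.527 FPKM in control, both too low to be tested. Scnn1a did not pass with smaller pseudocounts, without a filter, or without NEC 2, NEC 3 or any 1 control.

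Most inflammatory genes that glucocorticoids repress were too low to test. In a list of 18 genes, 5 were tested, of which 1 rose, 1 fell and 3 did not pass, the median change being -0.02. Both called genes had to differ to be tested, as Il1a passed the filter through NEC alone and Ptgs2 through control alone. Il1a, an epithelial and macrophage cytokine, was at 2.87, 1.98 and 0.923 FPKM in NEC, against 0.0649, 0.0665 and 0.188 FPKM in control (log2 change 1.35, SE 0.25, adjusted p = 0.0122). Ptgs2, the inducible cyclooxygenase, was at 0.579, 1.09 and 1.11 FPKM in NEC, against 2.77, 2.81 and 3.01 FPKM in control (log2 change -1.02, SE 0.14, adjusted p = 0.00676). The Il1a call was lost without control 1 or 2. Icam1, Mmp9 and Ccl5 did not pass (adjusted p = 0.462, 0.0725 and 0.912). Icam1 was called lower without NEC 1 (-0.59, adjusted p = 0.00691) and with array weights, and Mmp9 higher in 5 of 16 alternatives, among them TMM scaling (0.68, adjusted p = 0.00816). Icam1 was at 7.65 FPKM in NEC 1, above NEC 2 and 3 at 3.04 and 3.71 FPKM and the controls at 5.54 to 5.66 FPKM.

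**Figure D5:**
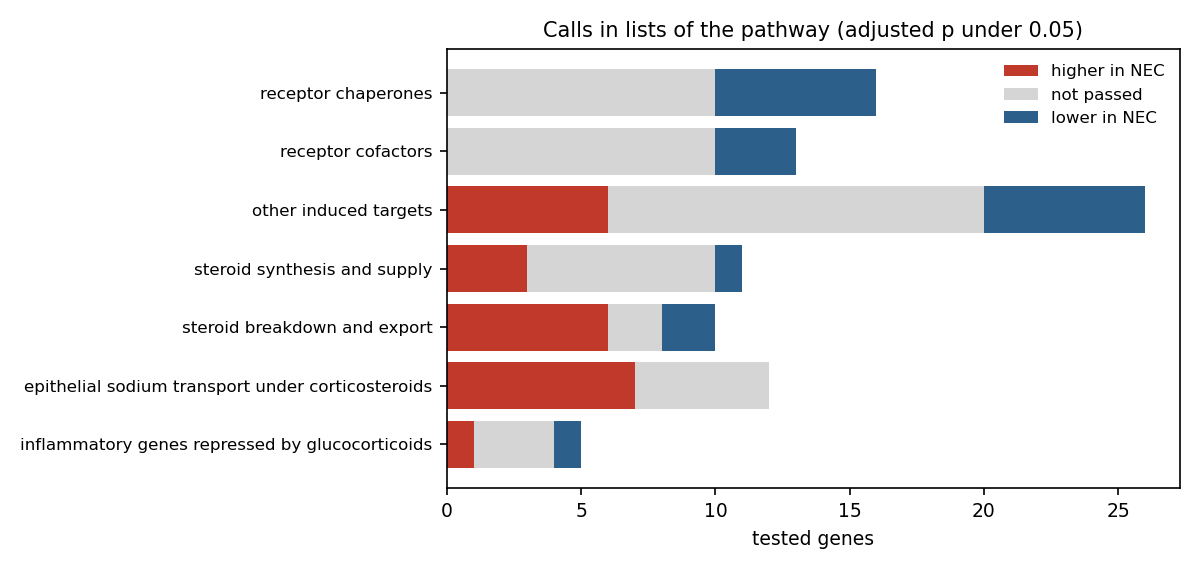
Number of tested genes (x axis, from 0) in each of 7 lists of the pathway (rows) that were higher in NEC, did not pass or were lower in NEC at an adjusted p under 0.05. The sodium transport list had 7 of 12 higher, and the hormone breakdown and export list 6 of 10, H6pd among them. The chaperone and cofactor lists had none higher, and 6 of 16 and 3 of 13 lower, on the deposited scale.

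Markers of other cells differed between the groups beside the members. The 5 fibroblast markers were all called lower and summed to 63.0 to 187 FPKM in NEC, against 335 to 414 FPKM in control. Smooth muscle markers summed to 114 to 508 FPKM in NEC and 603 to 725 FPKM in control, with no marker called. The 4 endothelial markers summed to 18.1 to 24.8 FPKM in NEC and 29.7 to 34.0 FPKM in control, with 2 called lower. Of the 5 of enteric neurons and glia, whose sums stand above, 3 were called lower. The 5 T and innate lymphoid markers summed to 0.795 to 1.32 FPKM in NEC and 2.31 to 3.57 FPKM in control. Macrophage sums overlapped, at 68.8 to 79.5 FPKM in NEC and 61.9 to 90.6 FPKM in control, while 2 of the 5 markers, Adgre1 and C1qa, were called lower at -0.87 and -0.48. Neutrophil sums were 40.9 to 46.7 FPKM in NEC and 3.36, 45 and 44.4 FPKM in control 1, 2 and 3. S100a8 and S100a9 gave most of each sum. Mpo, Ly6g and Elane were at most 0.115, 0.172 and 0.601 FPKM and were not tested. The 4 adipocyte markers summed to 36.7 to 50.6 FPKM in NEC and 12.9 to 13.4 FPKM in control, of which Cidec gave 34.5 to 48.0 FPKM in NEC and 10.2 to 10.5 FPKM in control, with Adipoq and Plin1 at most 0.138 FPKM. The part of cell makeup in the lower levels of Nr3c1, Hsd11b2 and Cyp11a1, or in any other value of the members, was not tested.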

How the data were processed

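Gene expression was measured in 6 libraries of mouse terminal ileum. The authors deposited 1 table with 1 value per gene and library. Its header states no unit, and the values were read as FPKM because Cuffdiff, which gives FPKM, is named in the submitters' processing notes beside HISAT2, SAMtools 1.3.1 and the build mm10. Which annotation was used, and whether counting was stranded, is not given in the sources used here. Columns N were taken as NEC, by number.

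Of 55487 identifiers, 55141 matched GENCODE M21. Depth was estimated from genes with a single transcript of at least 1500 bases, where 95.2% to 96.1% of values below 100 fragments were whole within 0.01.

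NEC and control were compared with limma 3.58.1 (R 4.3.3; trend in the prior variance, group as the only term) on log2(FPKM + 1). A gene was tested if it averaged at least 1 FPKM, and called if its p, adjusted by Benjamini-Hochberg over all tested genes, was under 0.05. A change on this scale understates that of genes of low value. The fit was tested on simulated data. Ratios were compared by exact permutation in scipy 1.17.1. Alternatives were pseudocounts, filters, scalings, array weights, a replicate block, no trend and each library left out. Same-numbered libraries did not deviate together (correlations -0.051, -0.007 and -0.074), so numbers were not taken as pairs.

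The 10 members and the lists were chosen with earlier results of these data known. The genes named are the members, up to 5 of each list with the smallest p, Nr3c2, Fkbp4, H6pd, Nr5a2, Per1, Dusp1, Mt1, Mt2, and the 5 most like Fkbp5. Some genes that this rule names are not reported here. Other genes are said to be named after their values were seen, or are markers. Promoters come from RefSeq, GRCm38.p6.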

Additional observations from a re-analysis of the deposited data

How the results depend on the processing

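Calls depended on the scale and on the controls. Over all tested genes, 1215 were higher and 4829 lower. TMM scaling, with a median change of 0.01, gave 2655 and 2264, quantile normalization 2115 and 2350, and a mean of at least 5 FPKM left 1746 lower. Leaving out 1 library gave 471 to 1566 higher and 917 to 5378 lower. For the 10 members, 3 and 3 on the deposited scale, it gave 0 to 4 higher and 2 lower each time. Without a filter 1 was higher, and at a mean of at least 5 FPKM 1 was lower, as fewer members were tested. The replicate block, under which 856 genes were higher and 3230 lower, left the members at 3 and 3. The differences in log2 ratio kept their direction in every alternative run, from 1.57 to 4.37 for Hsd11b1 over Hsd11b2, 0.34 to 0.74 for Nr3c2 over Nr3c1 and 1.40 to 3.41 for Fkbp5 over Fkbp4. Changes near 0 turned sign without passing: Klf9 to -0.04 with array weights and -0.12 without NEC 1, Per1 to -0.18 without NEC 1 (up to 0.41 without NEC 3), and Nr3c2 to 0.03 without NEC 1 (down to -0.23 without control 1), 0.04 with array weights, 0.09 with TMM scaling and 0.23 with quantile normalization. Rasd1 turned to -0.25 with array weights. With TMM scaling Dnajb1, Ncoa2, Ncoa3, Crebbp, Icam1 and Hsd3b3 were at 0.02, 0.01, 0.03, 0.01, 0.03 and 0.02, and Hsd3b3 at 0.03 without NEC 1 (-0.44 without NEC 3). Ccl5 was at 0.16 with TMM scaling, 0.32 with quantile normalization, 0.02 with scaling to protein-coding genes, 0.01 with array weights, and from -0.12 to 0.05 without 1 library. The cause of these shifts was not tested. Depth, 15.2 to 18.7 M fragments a library, limits genes near 1 FPKM and below, such as Hsd11b2 with 3.0 to 17.0 fragments in NEC.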
